A study of Mus musculus with 7 samples.

Results

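The genes described here encode proteins that end the light response of photoreceptors and return them to the dark state through calcium. They were chosen by gene name, as 9 of the 48440 genes counted in a study of mouse retina at embryonic day 16 (E16): *Rcvrn*, *Grk1*, *Rgs9*, *Rgs9bp*, *Guca1a*, *Guca1b*, *Gucy2e*, *Gucy2f* and *Slc24a1*. The study used bulk RNA-seq to ask how loss of the RNA-binding protein Ptbp1 in retinal progenitors alters gene expression in the developing retina. All animals carried the *Chx10-Cre* transgene, including the control group (WT), which carried no floxed *Ptbp1* allele. The heterozygous group (Het) had 1 floxed *Ptbp1* allele beside a wildtype allele (*Chx10-Cre;Ptbp1lox/WT*), and the knockout group (KO) had floxed alleles on both chromosomes (*Chx10-Cre;Ptbp1lox/lox*). Each library was made from a pool of several whole retinas of 1 genotype, with 1 library for WT, 3 for Het (Het1, Het2, Het3) and 3 for KO (KO1, KO2, KO3). Deletion was limited to progenitors in which *Chx10-Cre* acts and to the cells that descend from them. The sample labels name TRIzol for the RNA extraction, while the methods of the study name a column kit.

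Counts on genes summed to 148690857 in WT. They summed to 171117305, 120593979 and 152970301 in Het1, Het2 and Het3, and to 133765170, 131005766 and 129073579 in KO1, KO2 and KO3. Levels are given as CPM, which are counts scaled to the size of the library as adjusted by TMM, and the spread over 3 libraries as the SD. KO was compared with Het by the quasi-likelihood test of edgeR. A gene was called differentially expressed when its adjusted p, by the Benjamini-Hochberg method, was below 0.05 and its level changed by more than 1.2-fold (0.263 on the log2 scale) in either direction. The p-values measure the spread between pools, and an exact permutation test of 3 libraries against 3 could not go below p = 0.1. WT was a single library without a replicate, and its values carry no error and enter no test of their own.

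*Ptbp1* was examined first, as a check of the labels. It had 381 CPM in WT, 210 CPM in Het1, 219 CPM in Het2 and 234 CPM in Het3, against 27.9 CPM in KO1, 6.04 CPM in KO2 and 46.9 CPM in KO3. Every KO library was below every Het library, every Het library was below WT, and KO2 had the least *Ptbp1* RNA. The log2 fold change of KO over Het was -3.04 ± 0.635 (SE), with an edgeR Benjamini-Hochberg adjusted p of 0.0316. With Het1 left out the adjusted p was 0.0519, and it was 0.0964 with Het2, 0.0934 with Het3 and 0.0744 with KO1 left out. Over 13 alternative settings it ran from 3.09e-05 to 0.0964.

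In the dark, cyclic GMP holds cation channels of the photoreceptor outer segment open, and calcium enters through them. Light activates opsin, transducin and a phosphodiesterase that lowers cyclic GMP, the channels close, and an exchanger goes on removing calcium. The fall in calcium frees the opsin kinase from its calcium sensor and lets other calcium sensors switch on guanylate cyclases, while a GTPase-activating complex shuts transducin off, so that the cell recovers. In mice cones are born before birth, most rods are born around it, and both mature after it.

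All 9 genes passed the expression filter, as did 20019 genes in all. The filter follows the size of the smallest group, here WT with 1 library, so a gene could pass on its counts in 1 library. Of the 9, 4 were differentially expressed between KO and Het, against 7.22% of the genes tested. The study had already reported *Rcvrn* as higher in KO, and the 9 genes were chosen with earlier results of these data known. Their counts beside the shares of all genes are thus a description and not a test. *Rcvrn*, *Grk1* and *Rgs9bp* were higher in KO, 3 of 9 against 4.01% of all genes, and *Guca1b* was lower in KO, 1 of 9 against 3.21% of all genes. With 1 library left out, the number of the 9 genes called by edgeR was 0 without Het2 (1.93% of all genes), 0 without Het3 (2.49%), 2 without KO1 (6.12%), 1 without KO2 (3.06%), 3 without KO3 (8.39%) and 5 without Het1 (6.23%). The libraries of KO and Het did not overlap for 6 of the 9 genes, against 36.3% of the genes tested. The median log2 fold change was 0.45 over the 9 genes and -0.0047 over all genes tested. Of the 9 genes, 6 had a positive log2 fold change, as had 9819 of the 20019 genes, and 6 had an unadjusted p below 0.05 in edgeR, as had 5952 of the 20019. In bulk RNA, a change in the number of photoreceptors and a change in the RNA of each photoreceptor cannot be told apart. By immunostaining of newborn retina, the study reported an unaltered number of Otx2-positive cells in KO against controls. That is another age and another comparison than those made here.

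**Figure D1:**
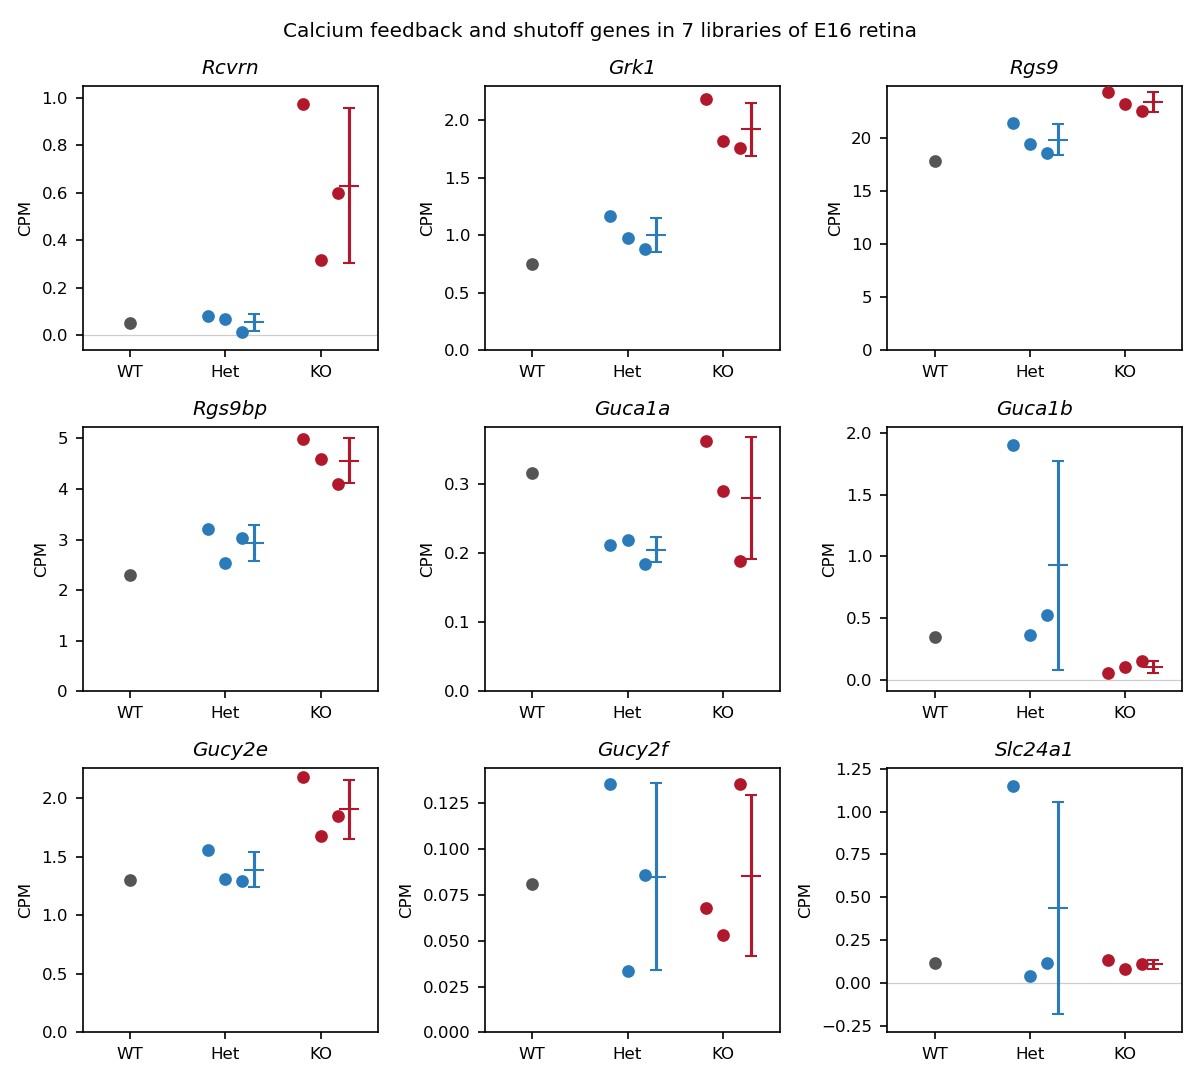
Level of each of the 9 genes in the 7 libraries, in CPM after TMM normalization on a linear axis; each point is 1 library, with Het and KO replicates 1 to 3 from left to right, and the bars give the mean and SD of 3 libraries. *Rcvrn*, *Grk1*, *Rgs9*, *Rgs9bp* and *Gucy2e* were higher in every KO library than in every Het library, *Guca1b* was lower in every KO library, and *Slc24a1* reached 1.15 CPM in Het1 and at most 0.136 CPM in the other libraries.

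*Rcvrn* (ENSMUSG00000020907.1, chromosome 11, 67695326 to 67703333, plus strand of GRCm38) encodes recoverin, the calcium sensor that holds the opsin kinase inactive when calcium is high. It had 8 counts in WT, 14 in Het1, 8 in Het2 and 2 in Het3, against 129 in KO1, 42 in KO2 and 80 in KO3. *Rcvrn* was therefore near the limit of detection in WT and Het and readily counted in every KO library, with no overlap between the groups. Its mean in Het was 0.0542 ± 0.0364 CPM (SD, n = 3), and its mean in KO was 11.6 times as high, at 0.631 ± 0.328 CPM (SD, n = 3). On the log2 scale *Rcvrn* was higher in KO by 3.52 ± 0.669 (SE), with a 95% confidence interval from 1.92 to 5.12 and an edgeR Benjamini-Hochberg adjusted p of 0.0243. The adjusted p of *Rcvrn* rose to 0.0895 without Het2 and 0.0571 without Het3, and over 12 alternatives it ran from 3.58e-06 to 0.0895, with log2 fold changes from 3.05 to 4.02. The gene lies within the span of *Glp2r*, which runs on the other strand and had 0 to 3 counts in the 7 libraries.

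*Grk1* (ENSMUSG00000031450.8, chromosome 8, 13405081 to 13421951, plus strand) encodes the opsin kinase, which phosphorylates active opsin so that arrestin can bind. It had 0.753 CPM in WT, 1.17 CPM in Het1, 0.974 CPM in Het2 and 0.876 CPM in Het3, against 2.18 CPM in KO1, 1.82 CPM in KO2 and 1.76 CPM in KO3. The KO libraries were all above the Het libraries, and WT was the lowest of the 7. Het averaged 1.01 ± 0.147 CPM (SD, n = 3), while KO averaged 1.92 ± 0.230 CPM (SD, n = 3). This was a log2 fold change of 0.93 ± 0.163 (SE), with a 95% confidence interval from 0.54 to 1.32 and an edgeR Benjamini-Hochberg adjusted p of 0.0196. For *Grk1* the adjusted p was 0.0849 without Het2, 0.0745 without Het3 and 0.0628 without KO2, in a range from 0.000355 to 0.0849 over 13 alternatives.

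The complex that switches transducin off was represented by its catalytic subunit and its membrane anchor. *Rgs9* (ENSMUSG00000020599.13, chromosome 11, 109225355 to 109298129, minus strand) encodes the GTPase-activating protein that speeds GTP hydrolysis by transducin, and it has another major site of expression in the striatum. It had 17.8 CPM in WT, 21.4 CPM in Het1, 19.5 CPM in Het2 and 18.6 CPM in Het3, against 24.4 CPM in KO1, 23.2 CPM in KO2 and 22.6 CPM in KO3. The KO and Het libraries of *Rgs9* did not overlap, although the separation was small beside its level. The log2 fold change of 0.24 ± 0.0649 (SE), with a 95% confidence interval from 0.083 to 0.39, was below the fold limit, and the edgeR Benjamini-Hochberg adjusted p was 0.0633. Without Het1, the log2 fold change of *Rgs9* was 0.30 and its adjusted p was 0.0355, so that it passed both limits, within a range of adjusted p from 0.0158 to 0.179 over 13 alternatives.

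*Rgs9bp* (ENSMUSG00000056043.5, chromosome 7, 35578993 to 35585582, minus strand, 1 exon) encodes the protein that anchors this complex to the disc membrane. It had 2.31 CPM in WT, 3.21 CPM in Het1, 2.53 CPM in Het2 and 3.04 CPM in Het3, against 5.0 CPM in KO1, 4.59 CPM in KO2 and 4.10 CPM in KO3. Every KO library exceeded every Het library, and WT was the lowest of all. Het averaged 2.93 ± 0.352 CPM (SD, n = 3), while KO averaged 4.56 ± 0.449 CPM (SD, n = 3). *Rgs9bp* had a log2 fold change of 0.64 ± 0.129 (SE), with a 95% confidence interval from 0.33 to 0.95 and an edgeR Benjamini-Hochberg adjusted p of 0.0285. The anchor thus passed the test and the catalytic subunit did not, and the difference between their fold changes was not tested. For *Rgs9bp* the adjusted p was 0.0949 with Het2, 0.0910 with Het3, 0.0626 with KO1 and 0.0953 with KO2 left out, in a range from 0.000428 to 0.0953 over 13 alternatives.

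The guanylate cyclases that restore cyclic GMP are encoded by *Gucy2e*, the main cyclase of mouse rods and cones, and *Gucy2f*, its close relative. *Gucy2e* (ENSMUSG00000020890.11, chromosome 11, 69218117 to 69237036, minus strand) had 1.30 CPM in WT, 1.56 CPM in Het1, 1.31 CPM in Het2 and 1.29 CPM in Het3, against 2.18 CPM in KO1, 1.68 CPM in KO2 and 1.85 CPM in KO3. Its KO libraries lay above its Het libraries without overlap, by a narrow margin between Het1 and KO2. *Gucy2e* had a log2 fold change of 0.46 ± 0.151 (SE), with a 95% confidence interval from 0.095 to 0.81 and an edgeR Benjamini-Hochberg adjusted p of 0.101, which did not pass the test. *Gucy2f* (ENSMUSG00000042282.4, chromosome X, 142081160 to 142196931, minus strand) had 12 counts in WT, 23 in Het1, 4 in Het2 and 13 in Het3, against 9 in KO1, 7 in KO2 and 18 in KO3. The groups overlapped fully, and at these counts only a large difference in *Gucy2f* would have been detectable. Its log2 fold change was -0.02 ± 0.589 (SE), with a 95% confidence interval from -1.42 to 1.39 and an edgeR Benjamini-Hochberg adjusted p of 0.987.

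*Guca1a* and *Guca1b* encode the guanylate cyclase-activating proteins, which stimulate the cyclases when calcium falls. They are neighbours on chromosome 17 and lie tail to tail, with 1590 bases between them. *Guca1a* (ENSMUSG00000023982.7, 47394558 to 47400584, minus strand) had 47 counts in WT, 36 in Het1, 26 in Het2 and 28 in Het3, against 48 in KO1, 38 in KO2 and 25 in KO3. In CPM, the groups overlapped through KO3, and WT was above every Het library. The log2 fold change of *Guca1a* was 0.45 ± 0.291 (SE), with a 95% confidence interval from -0.25 to 1.14 and an edgeR Benjamini-Hochberg adjusted p of 0.343.

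*Guca1b* (ENSMUSG00000023979.14, 47385393 to 47392967, plus strand) was the only one of the 9 genes called lower in KO. It had 51 counts in WT, 323 in Het1, 43 in Het2 and 79 in Het3, against 7 in KO1, 13 in KO2 and 20 in KO3. Het1 stood far above Het2 and Het3, and all KO libraries were below WT and below every Het library. Het averaged 0.928 ± 0.847 CPM (SD, n = 3) and was 9.22 times as high as KO, which averaged 0.101 ± 0.0487 CPM (SD, n = 3). *Guca1b* had a log2 fold change of -3.20 ± 0.744 (SE), with a 95% confidence interval from -4.97 to -1.42 and an edgeR Benjamini-Hochberg adjusted p of 0.0421. Without Het1, the log2 fold change was -2.13 and the adjusted p was 0.0402, so the lower level in KO was called also when the highest Het library was left out. The call was lost without Het2 (adjusted p = 0.0666), Het3 (0.0786), KO1 (0.0947), KO2 (0.130) or KO3 (0.0602), in a range from 2.04e-05 to 0.130 over 12 alternatives.

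*Slc24a1* (ENSMUSG00000034452.7, chromosome 9, 64922861 to 64951607, minus strand) encodes the sodium, calcium and potassium exchanger of rods, which removes calcium from the outer segment. It had 17 counts in WT, 195 in Het1, 5 in Het2 and 18 in Het3, against 18 in KO1, 11 in KO2 and 15 in KO3. Het1 was the only library with more than 18 counts, and the other Het libraries overlapped with KO. *Slc24a1* had a log2 fold change of -1.98 ± 1.11 (SE), with an edgeR Benjamini-Hochberg adjusted p of 0.279, and it became 0.43 without Het1, with an adjusted p of 0.657 in a range from 0.132 to 0.657 over 12 alternatives. The level of *Slc24a1* in Het therefore rested on 1 library.

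Markers of other tissues were measured beside *Guca1b* and *Slc24a1*, since Het1 stood apart for both. The summed level of 12 skeletal muscle genes was 298 CPM in Het1, against 8.09 CPM in Het2, 8.04 CPM in Het3, 9.29 CPM in WT, and 8.84 CPM, 9.45 CPM and 10.6 CPM in KO1, KO2 and KO3. Of these 12 genes 11 were highest in Het1, and *Myh3*, an embryonic myosin, was the most abundant. The summed level of 8 genes of pigmented cells was 523 CPM in Het1, against 30.3 CPM in Het2, 61.1 CPM in Het3, 32.0 CPM in WT, and 27.2 CPM, 20.7 CPM and 56.1 CPM in KO1, KO2 and KO3. Among these 8 genes 7 were highest in Het1, although *Lrat* only by a small margin, with 0.954 CPM in Het1 and 0.938 CPM in KO3. *Pmel*, a melanosome protein, was the most abundant, while *Rpe65*, a marker of mature pigment epithelium, had 0 to 2 counts in every library. *Rgr*, another gene of this list, was called lower in KO, with 1.51 CPM in WT, 2.19 CPM, 1.88 CPM and 1.88 CPM in Het1, Het2 and Het3, and 0.679 CPM, 0.836 CPM and 0.901 CPM in KO1, KO2 and KO3. Its log2 fold change was -1.30 ± 0.155 (SE), with an edgeR Benjamini-Hochberg adjusted p of 0.00757. Without Het1 the log2 fold change of *Rgr* was -1.22 (edgeR Benjamini-Hochberg adjusted p = 0.0168). Of the 8 genes of this list 7 were tested, with 1 called lower in KO (3.21% of all genes) and 0 higher (4.01%). Across the 7 libraries, the Pearson correlation of log2 levels was 0.990 between *Slc24a1* and *Myh3*, 0.955 between *Slc24a1* and *Pmel* and 0.918 between *Guca1b* and *Pmel*, as a description in which Het1 is the extreme point. The part of muscle or pigmented cells in the Het1 values of *Guca1b* and *Slc24a1* was not tested.

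Lens genes did not share this pattern as a list, and 2 of 8 were highest in Het1. The summed level of 8 lens genes was 14.9 CPM in WT, 25.6 CPM in Het1, 57.5 CPM in Het2, 79.1 CPM in Het3, and 2.98 CPM, 6.72 CPM and 52.2 CPM in KO1, KO2 and KO3, with *Cryaa* the most abundant and *Lim2* at 0 counts in every library. For 8 bipolar cell genes the sum was 67.9 CPM in WT, 163 CPM in Het1, 67.5 CPM in Het2, 84.2 CPM in Het3, and 53.0 CPM, 52.8 CPM and 93.1 CPM in KO1, KO2 and KO3. *Trpm1*, which melanocytes also express, was the most abundant of these and the only 1 of the 8 that was highest in Het1. Of the 8 bipolar genes 2 were called, 1 higher and 1 lower in KO, against 4.01% and 3.21% of all genes. *Bhlhe23*, a transcription factor of rod bipolar cells, had 1.17 CPM in WT, 0.936 CPM, 1.05 CPM and 1.29 CPM in Het1, Het2 and Het3, and 0.302 CPM, 0.312 CPM and 0.278 CPM in KO1, KO2 and KO3. Its log2 fold change was -1.88 ± 0.179 (SE), with an edgeR Benjamini-Hochberg adjusted p of 0.0048. *Gpr179* had 8.92 CPM in WT, 10.5 CPM, 8.35 CPM and 8.18 CPM in the Het libraries, and 16.3 CPM, 15.3 CPM and 18.4 CPM in the KO libraries. It was higher in KO by 0.89 ± 0.119 (SE) on the log2 scale, with an edgeR Benjamini-Hochberg adjusted p of 0.0100, which was 0.0535 without Het2 and ran from 5.32e-12 to 0.0535 over 13 alternatives. The part of bipolar cells in the results for the 9 genes was not tested.

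The genes within 50 kb of each called gene were examined. Around *Guca1b* there were 6 such genes, of which 5 were tested and 1, *Mrps10*, was called, against 7.22% of all genes tested. *Mrps10*, a mitochondrial ribosomal protein gene, lies from 47368887 to 47381417 on the same strand, and its end is 3975 bases before the start of *Guca1b*. It had 2503 counts in WT, 3124 in Het1, 2473 in Het2 and 2908 in Het3, against 844 in KO1, 883 in KO2 and 889 in KO3. The KO libraries of *Mrps10* lay close together and far below both Het and WT, and Het1 did not stand apart. Its log2 fold change was -1.56 ± 0.0647 (SE), with an edgeR Benjamini-Hochberg adjusted p of 0.000441. *Trerf1*, a gene farther upstream, had a log2 fold change of -0.26, just short of the fold limit, at an adjusted p of 0.00774. On the other side, *1700001C19Rik* was not tested, with 3 counts in WT, 4, 6 and 9 in Het1, Het2 and Het3, and 0 in each KO library. *AI661453* had 379 counts in Het1, 33 in Het2 and 41 in Het3, against 9 to 46 in KO, and was not called (adjusted p = 0.172). *Grk1* had 5 such neighbours, *Rcvrn* 2 and *Rgs9bp* 4, and the lowest edgeR adjusted p among those tested was 0.257, for *Tmem255b* beside *Grk1*.

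**Figure D2:**
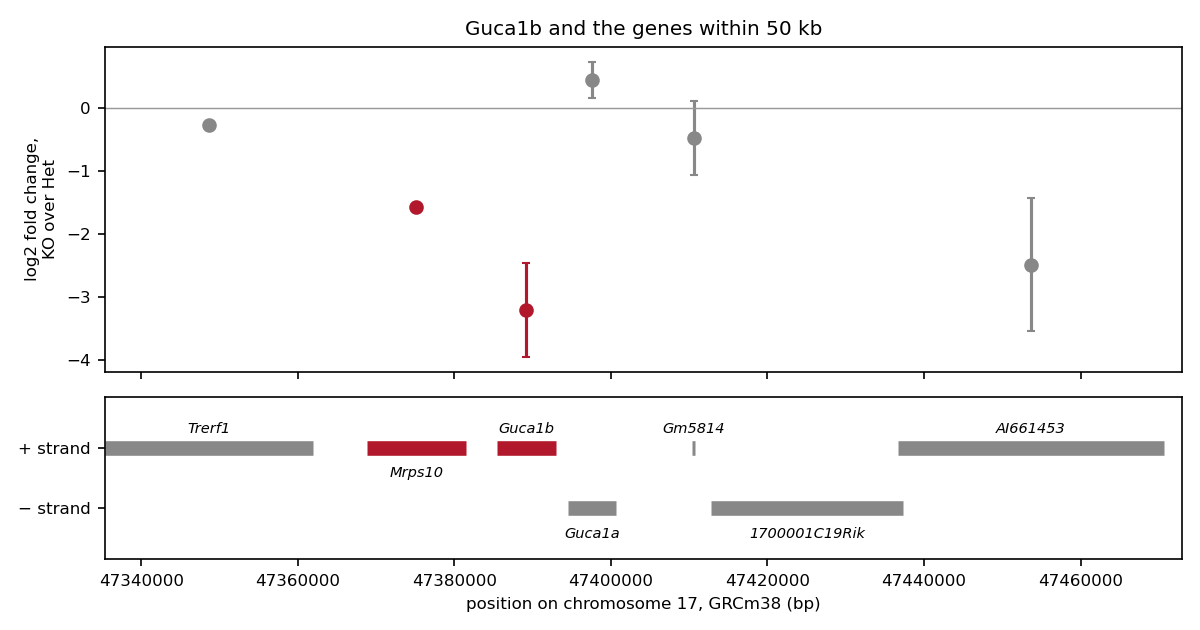
Log2 fold change of KO over Het with its standard error (top) for *Guca1b* and the tested genes within 50 kb, and their positions by strand on chromosome 17 of GRCm38 in base pairs (bottom); red marks genes called differentially expressed. *Mrps10* (-1.56) and *Guca1b* (-3.20) were called, and *Guca1a*, which lies beside *Guca1b* on the other strand, had a log2 fold change of 0.45.

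To compare levels between the genes, CPM was divided by the length of all annotated exons in kb. On this scale *Rgs9* was the highest in Het, at 3.10 ± 0.229 CPM per kb (SD, n = 3), followed by *Rgs9bp* at 0.444 ± 0.0535, *Guca1b* at 0.380 ± 0.347, *Guca1a* at 0.235 ± 0.0205, *Gucy2e* at 0.151 ± 0.0163, *Grk1* at 0.114 ± 0.0167, *Slc24a1* at 0.0837 ± 0.118, *Rcvrn* at 0.0522 ± 0.0350 and *Gucy2f* at 0.0105 ± 0.0063. The places of *Guca1b* and *Slc24a1* in Het rested on Het1. *Guca1b* had 0.779 CPM per kb in Het1, 0.148 in Het2 and 0.213 in Het3, the latter 2 below the mean of *Guca1a*. *Slc24a1* had 0.220 CPM per kb in Het1, 0.00805 in Het2 and 0.0228 in Het3, the latter 2 below the mean of *Rcvrn*. Neighbours in this order overlapped between libraries except *Rgs9* with *Rgs9bp*, *Guca1a* with *Gucy2e*, and *Gucy2e* with *Grk1*. In KO, *Rcvrn* stood at 0.607 ± 0.316 CPM per kb, behind *Rgs9* at 3.66 ± 0.143 and *Rgs9bp* at 0.692 ± 0.0681. Then came *Guca1a* at 0.320 ± 0.100, *Grk1* at 0.218 ± 0.0261, *Gucy2e* at 0.207 ± 0.0277, *Guca1b* at 0.0412 ± 0.0199, *Slc24a1* at 0.0212 ± 0.0050 and *Gucy2f* at 0.0105 ± 0.0054. *Rcvrn* had moved from near the end of the order to a level that overlapped with that of *Rgs9bp*, and *Guca1b* had moved down below *Gucy2e*. All 9 genes were low beside *Crx*, a transcription factor of photoreceptor precursors, which had 50.2 ± 3.03 CPM per kb in Het and 57.6 ± 4.71 in KO.

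The genes were also set against *Crx* in the same library, which is expressed in rod and cone precursors. *Crx* itself had 168 CPM, 158 CPM and 149 CPM in Het1, Het2 and Het3, and 198 CPM, 178 CPM and 169 CPM in KO1, KO2 and KO3. These groups did not overlap. *Crx* RNA is not a count of cells, so the ratios do not separate cell number from RNA per cell. Per 1000 counts of *Crx*, *Rcvrn* had 0.334 ± 0.215 counts in Het and 3.42 ± 1.56 in KO (SD, n = 3), 10.2 times as many. *Grk1* had 6.32 ± 0.545 in Het and 10.5 ± 0.419 in KO per 1000 *Crx* counts, 1.67 times as many. *Rgs9bp* had 18.5 ± 2.26 and 25.1 ± 0.786 on this scale, 1.35 times as many in KO. For these genes the difference between KO and Het on this scale was larger than the spread between libraries. *Rgs9* had 125 ± 2.30 counts per 1000 *Crx* counts in Het and 129 ± 5.37 in KO, a difference within the spread. *Gucy2e* had 8.73 ± 0.509 and 10.4 ± 0.881. *Guca1b* had 11.3 counts per 1000 *Crx* counts in Het1, 2.28 in Het2 and 3.49 in Het3, against 0.266, 0.555 and 0.887 in KO1, KO2 and KO3, so that Het1 carried much of its Het mean of 5.69 ± 4.90 and the groups did not overlap. The other members overlapped between KO and Het on this scale, with KO at 1.18 times Het for *Guca1a*, 0.904 times for *Gucy2f* and 0.231 times for *Slc24a1*, for which Het1 had 6.82 and the other Het libraries 0.265 and 0.796.

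Across the 7 libraries, *Rcvrn*, *Grk1*, *Rgs9*, *Rgs9bp* and *Gucy2e* varied together, with Pearson correlations of log2(CPM + 0.5) from 0.857 (*Rcvrn* with *Rgs9bp*) to 0.978 (*Grk1* with *Rgs9*). *Guca1b* correlated negatively with each of these genes, from -0.334 with *Rgs9* to -0.623 with *Rcvrn*, and at 0.875 with *Slc24a1*. These are descriptions over libraries that share the genotype contrast. The genes most like the mean profile of the 9, among 13694 genes of at least 1 CPM, were *Mcoln1* (r = 0.988), *Rlbp1* (0.983), *Ets2* (0.983), *Ermn* (0.981) and *S1pr2* (0.978). That profile was high in Het1 as well as in the KO libraries, and the lowest edgeR Benjamini-Hochberg adjusted p among the 5 genes was 0.128, for *Ermn*.

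The remaining proteins of the pathway were followed in lists chosen by function. Of 15 partners of the shutoff and feedback steps (arrestins, channel subunits, the cone exchanger, phosducin, a phosphatase and chaperones among them), 14 were tested and 8 were higher in KO (4.01% of all genes), with 0 lower (3.21%) and a median log2 fold change of 0.54. The 8 were *Sag*, *Cngb1*, *Pdc*, *Cnga3*, *Aipl1*, *Cngb3*, *Slc24a2* and *Ppef2*, with log2 fold changes from 0.47 in *Ppef2* to 2.40 in *Sag*, the rod arrestin gene. *Sag* had 146 counts in WT, 57, 50 and 60 in Het1, Het2 and Het3, and 401, 226 and 177 in KO1, KO2 and KO3. The kinase and the arrestin that acts after it were thus both higher in every KO library than in every Het library. In the single WT library these genes differed, with *Sag* above every Het library and *Grk1* below every Het library. *Slc24a2*, the exchanger of cones, had 324 counts in WT, 631, 402 and 499 in the Het libraries and 756, 647 and 705 in the KO libraries. In CPM the KO and Het libraries of *Slc24a2* did not overlap, whereas those of the rod exchanger did. *Calm2* and *Calm3* were among the most abundant partners, with log2 fold changes of -0.06 and 0.0043, and neither was called by edgeR. *Cnga1*, the rod channel subunit, was not tested, with 0 to 5 counts. With Het2, Het3, KO1 or KO2 left out, edgeR called 0, 1, 5 and 4 partners higher, beside 1.93%, 2.49%, 6.12% and 3.06% of all genes in either direction.

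Of 14 genes of the activation arm, from opsins to phosphodiesterase, 12 were tested and 7 were higher in KO (4.01% of all genes), with 0 lower (3.21%) and a median log2 fold change of 1.46. These were *Pde6b*, *Gngt1*, *Opn1sw*, *Pde6g*, *Pde6c*, *Gnat2* and *Gngt2*, with log2 fold changes from 0.49 in *Gngt2* to 3.65 in *Pde6b*, the rod phosphodiesterase subunit. *Pde6b* resembled *Rcvrn* in its counts, with 6 in WT, 6, 2 and 12 in the Het libraries and 145, 41 and 40 in the KO libraries. *Gnb1* (log2 fold change -0.0027) and *Gnb3* (0.49) were not called, and were with *Gngt2* the most abundant of the list. *Gnb3* was called without Het1 (edgeR Benjamini-Hochberg adjusted p = 0.0395) and by DESeq2 (0.000987), in a range from 0.000987 to 0.193 over 13 alternatives. DESeq2 called 9 activation genes higher, with 11.6% of all genes called in either direction. With Het2, Het3, KO1 or KO2 left out, edgeR called 1, 1, 4 and 2 activation genes higher, and 1.93%, 2.49%, 6.12% and 3.06% of all genes in either direction. Among 9 transcription factors of photoreceptors, 4 were higher in KO (*Nr2e3* by 3.34, *Nrl* by 1.41, *Prdm1* by 0.69 and *Neurod1* by 0.32 on the log2 scale) and 0 lower, against 4.01% and 3.21% of all genes, and the median log2 fold change was 0.20. Without Het2, 2 of these 4 calls were made, in a fit that called 1.93% of all genes in either direction. *Crx* (0.20) and *Otx2* (0.12) were not called and were among the most abundant of these factors.

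**Figure D3:**
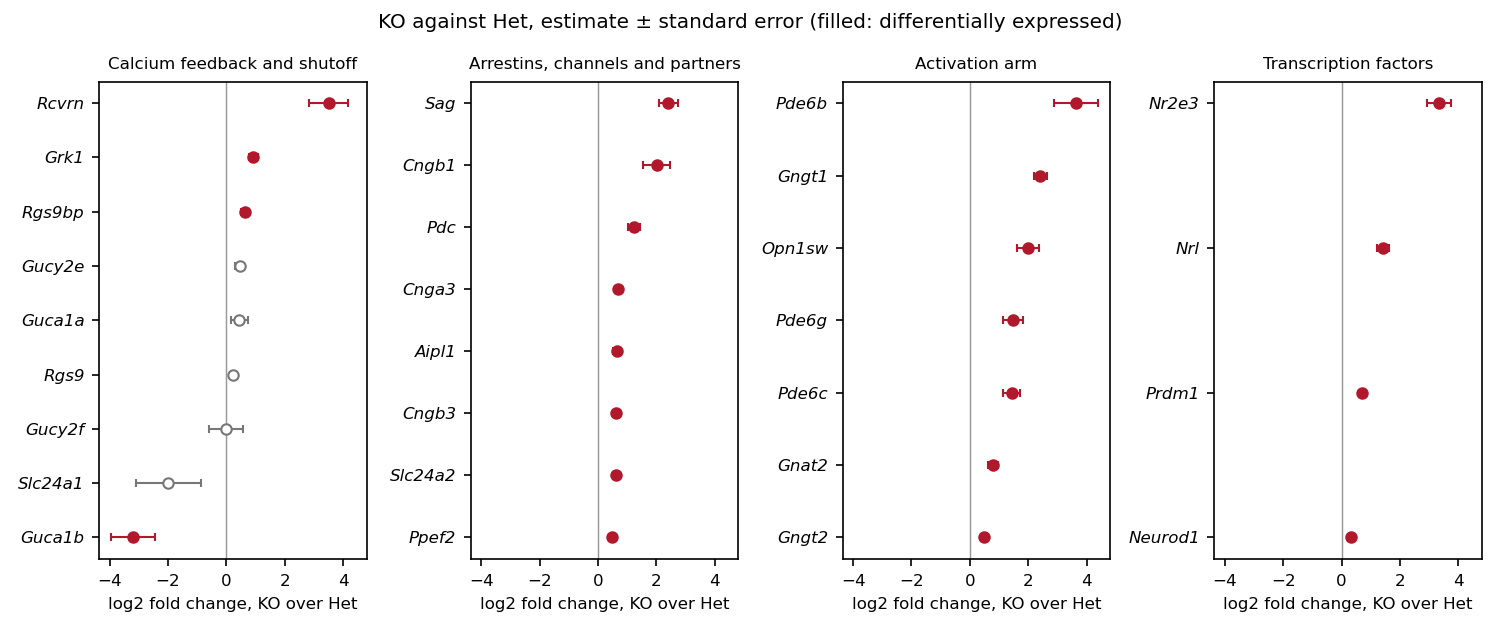
Log2 fold change of KO over Het with its standard error for the 9 calcium feedback and shutoff genes, and for the genes called differentially expressed among their partners, the activation arm and the photoreceptor transcription factors, whose other genes are not drawn; filled red points were called. *Guca1b* (-3.20) was the only called gene below 0.

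Promoter sequences were held for 6 of the 9 genes, *Grk1*, *Rgs9*, *Gucy2e*, *Gucy2f*, *Guca1a* and *Slc24a1*. The 250 bases before the RefSeq start of each gene were searched for TAATCC, the core motif bound by Crx and Otx2, and for its reverse complement GGATTA. A match was found for 3 of the 6, *Gucy2e*, *Guca1a* and *Gucy2f*, and in 2054 of 32851 promoters of mouse genes (6.25%). The sequences with a match are shown beside that of *Grk1*, the called gene without one, in lower case from 5′ to 3′ on the strand of the gene, with the motif in capitals (RefSeq, GRCm38.p6). That of *Grk1* is chr8:13404831-13405080 (plus strand), that of *Gucy2e* chr11:69237023-69237272 (minus), that of *Guca1a* chr17:47400607-47400856 (minus) and that of *Gucy2f* chrX:142196937-142197186 (minus).
Grk1: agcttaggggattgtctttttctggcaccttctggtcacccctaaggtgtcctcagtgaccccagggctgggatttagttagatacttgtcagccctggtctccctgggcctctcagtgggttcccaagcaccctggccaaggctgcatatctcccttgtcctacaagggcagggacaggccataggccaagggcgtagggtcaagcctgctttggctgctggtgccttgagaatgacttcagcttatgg
Gucy2e: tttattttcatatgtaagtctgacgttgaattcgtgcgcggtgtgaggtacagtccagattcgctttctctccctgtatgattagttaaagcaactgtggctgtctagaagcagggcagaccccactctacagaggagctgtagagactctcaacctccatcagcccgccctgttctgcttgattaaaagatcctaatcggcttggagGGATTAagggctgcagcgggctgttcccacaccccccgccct
Guca1a: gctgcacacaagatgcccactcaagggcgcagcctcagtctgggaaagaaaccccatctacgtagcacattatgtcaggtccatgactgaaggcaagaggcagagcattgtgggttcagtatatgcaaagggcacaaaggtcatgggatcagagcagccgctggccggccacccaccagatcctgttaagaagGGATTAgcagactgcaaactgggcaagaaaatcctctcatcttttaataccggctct
Gucy2f: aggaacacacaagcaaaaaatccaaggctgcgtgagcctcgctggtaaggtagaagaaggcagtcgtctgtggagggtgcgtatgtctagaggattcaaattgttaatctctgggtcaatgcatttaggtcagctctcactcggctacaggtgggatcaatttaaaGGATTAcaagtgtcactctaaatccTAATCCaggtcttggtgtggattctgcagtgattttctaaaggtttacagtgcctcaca
Counted from the RefSeq start, the motif began 42 bases before it in *Gucy2e*, 57 bases in *Guca1a*, and 84 and 59 bases in *Gucy2f*, whose 2 copies are on opposite strands. The RefSeq start differs from the end of the gene given above for these genes. It lies 14 bases inside the annotated *Gucy2e*, 22 bases upstream of *Guca1a* and 5 bases upstream of *Gucy2f*, while that of *Grk1* is the same. None of the 3 genes with a match was called between KO and Het, and *Grk1* was. A match says only that these letters are in the window.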

How the data were processed

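The assay was bulk RNA-seq of pooled E16 mouse retinas, in 7 libraries. The authors aligned reads to GRCm38 (mm10) with STAR and assigned them to genes with featureCounts. The deposited values are raw counts per gene, and 0 value columns were left unused. Whether the counting used strand, and how it handled reads that map to several places, is not given in the sources used here, so counts of overlapping genes and of close relatives are uncertain.

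Genes were filtered with filterByExpr, normalized by TMM and fitted by the quasi-likelihood method of edgeR 4.0.16 in R 4.3.3. The fit held all 7 libraries with a mean per genotype, and the contrast was KO minus Het. Benjamini-Hochberg adjustment was made over all 20019 tested genes. Standard errors are the log2 fold change divided by the square root of F. Replicates were checked for copies, and the counts of a pair varied 13.0 to 49.4 times as much as counting alone would give. The scripts were tested on simulated data.

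The members and the gene lists were chosen with earlier results of these data known. The text names all 9 members, the called genes and the 3 most abundant genes of each pathway list, the genes within 50 kb of a called member, and the 5 genes most alike in profile. The values given for *Sag*, *Slc24a2*, *Cnga1*, *Pde6b*, *Bhlhe23*, *Gpr179*, *Rgr* and *Lrat* were singled out after they were seen. The results for 2 genes are not reported here.

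Coordinates and exon lengths come from GENCODE M21, on the same build as the authors' M10, and 48058 of 48440 genes were found in it by identifier. Promoter sequences come from RefSeq (GRCm38.p6). As alternatives, the comparison was repeated with DESeq2 1.42.0, with RLE or upper-quartile factors, without a filter, with a minimum of 10 counts in all libraries, without WT, with the replicate number as a block, with 1 Het or KO library left out at a time, and without the fold limit. Splicing and single-cell data were not analysed here.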

Additional observations from a re-analysis of the deposited data

How the results depend on the processing

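The 4 calls among the 9 genes were made also with DESeq2, with RLE and upper-quartile normalization, without a filter, with the 6 Het and KO libraries alone and with adjusted p alone. The share of all genes called was 11.6% with DESeq2 (2070 genes), 7.28% and 7.29% with the other normalizations, 4.51% without a filter, 8.38% without WT and 11.1% with adjusted p alone, against 7.22%. With at least 10 counts required in every library, 5 of the 9 genes were tested and 2 were called, *Grk1* and *Rgs9bp* (9.14% of all genes), since *Rcvrn* and *Guca1b* no longer passed the filter. Over all genes, adjusted p alone called 2221 genes in place of 1445.

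Leaving out 1 library at a time moved the counts most, in fits with fewer libraries. The number of called genes ran from 386 (without Het2) to 1673 (without KO3) over all genes, and was 496 without Het3 and 612 without KO2. Among the 9 genes it ran from 0 to 5: 0 without Het2 or Het3, 1 without KO2 (*Rcvrn*), 2 without KO1, 3 without KO3 and 5 without Het1. It ran from 0 to 6 for the partners, from 1 to 6 for the activation arm and from 2 to 4 for the transcription factors. In the same fits, the share of all genes called ran from 1.93% without Het2 to 8.39% without KO3. That share was 2.49% without Het3, 3.06% without KO2, 6.12% without KO1 and 6.23% without Het1. The log2 fold change ran from -0.51 to 0.48 for *Gucy2f*, from -2.51 to 0.43 for *Slc24a1*, from -0.0307 to 0.0697 for *Calm3* and from -0.0322 to 0.0480 for *Gnb1*, none of which was called. That of *Gnb1* was 0.000538 with at least 10 counts in every library. The cause of these changes was not tested.

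With the replicate number as a block (the replicate block), 1268 genes were called (6.88%), 3 of the 9 members among them. *Guca1b* was not called there (log2 fold change -2.83, edgeR Benjamini-Hochberg adjusted p = 0.0866), nor were *Cngb1* (0.0598) and *Gngt2* (0.0767), and *Gucy2f* had a log2 fold change of 0.042, while *Gnb3* was called (adjusted p = 0.00853). Libraries of the same number did not deviate together, with correlations of -0.143, 0.249 and -0.0063, so they share only a number. Over 40 genes and 13 alternatives there were 513 values, of which 422 kept their direction and their side of the threshold, 76 fell short of it, 4 passed it newly and 11 changed sign. *Gucy2f*, *Guca1a*, *Slc24a1* and, in Het, *Rcvrn* rest on few counts, which limits what their fold changes can show.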
